A study of Mus musculus with 9 samples.

Results

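The genes described here are 37 genes of the endoplasmic reticulum (ER) stress response and the integrated stress response. They were chosen by gene symbol from a list, with no threshold on the measured values but with earlier results of these data known, and are 37 of the 54532 genes in the count table. All 37 symbols were found. Ddit3 was listed under 2 identifiers, of which 1 (ENSMUSG00000116429) held 0 counts in all libraries, and the other was used. The genes were sorted by role into 14 chaperones and folding enzymes of the ER lumen, 6 genes of ER-associated degradation, 4 genes of stress sensing, 7 transcription factors and feedback genes of the integrated stress response, and 6 genes of amino acid and one-carbon metabolism.

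The study sequenced heart RNA of male wild-type mice of strain C57BL/6J, 8 to 10 weeks old, in 3 groups of 3. Sham mice had a thoracotomy with a suture passed under the left anterior descending coronary artery but not tied. MIRI mice had myocardial ischemia/reperfusion injury, that is 30 min of ligation of that artery followed by 24 h of reperfusion, and received saline. GXNI mice had the same injury and received 9 mL/kg of Guanxinning injection, a preparation of Danshen and Chuanxiong, and all injections were made through the tail vein within 10 min of ischemia. The comparison of MIRI with sham asks what the injury did, and that of GXNI with MIRI asks what the injection changed in injured hearts.

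Secretory and membrane proteins are folded in the ER by chaperones and oxidoreductases. When unfolded proteins build up there, the sensors IRE1 (Ern1), ATF6 and PERK (Eif2ak3) start the unfolded protein response: IRE1 splices the Xbp1 mRNA, ATF6 is cut to a transcription factor, and PERK phosphorylates the translation factor eIF2. PERK shares eIF2 with kinases that sense amino acid shortage, heme shortage and double-stranded RNA, and the common branch, in which translation slows while ATF4 is made, is the integrated stress response. ATF4 switches on amino acid import and synthesis, and both branches are known to respond to ischemia and reperfusion in heart muscle. The counts measure mRNA, so neither splicing of Xbp1, cleavage of ATF6 nor phosphorylation of eIF2 was measured.

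Library totals lay between 17119454 and 22811295 counts, at which 3 counts equal 0.132 to 0.175 CPM, that is counts scaled to the library total. The injured groups were widely spread, and the libraries labelled MIRI 2 and GXNI 3 lay far from others of their groups, as did GXNI 1. On the first principal component of all genes, which held 64.7% of the variance, sham libraries lay between -59.8 and -52.2. The library labelled MIRI 2 lay at -44.4 beside GXNI 1 at -43.5, and the library labelled GXNI 3 lay at 94.4 beside MIRI 1 at 61.6 and MIRI 3 at 83.2, while GXNI 2 lay at 18.7. By rank correlation the library most similar to MIRI 2 was GXNI 1, and the library most similar to GXNI 3 was MIRI 3. GXNI 1 was most similar to sham 1, GXNI 2 to MIRI 1, and MIRI 1 to GXNI 3. No injured library was thus most similar to one of its own group. The deposited labels were kept, results that rest on these libraries are given with and without them, and whether the labels of the pair were exchanged was not tested.

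The labels give the cell type as cardiomyocytes, but the RNA came from whole heart tissue and held markers of other cells. The summed level of 10 neutrophil markers was 30.1 to 60.9 CPM in sham hearts, 764 CPM in MIRI 1, 707 CPM in MIRI 3 and 740 CPM in GXNI 3, against 232 CPM in GXNI 2, 50.4 CPM in GXNI 1 and 28.0 CPM in MIRI 2, and all 10 had counts in every library. The sum of 8 ventricular cardiomyocyte markers was 41870 to 44574 CPM in sham hearts, 45977 CPM in MIRI 2, 37405 CPM in GXNI 1, and 28846 to 32561 CPM in the other 4 injured hearts. The place of MIRI 2 above sham rested on Actc1 alone, since the other 7 markers summed to 37153 CPM there and to 37602 to 39071 CPM in sham hearts. In bulk tissue a lower level from fewer cells of a type cannot be told apart from less RNA per cell, and the part of cell composition in the results below was not tested.

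Several of the genes carry in their promoters the letters that the response reads. Promoters of 250 bases before to 50 after the annotated start were taken from RefSeq (GRCm38.p6), where 33 of the 37 genes had one; Manf, Atf6, Derl1 and Hyou1 had none. The ER stress response element (ERSE), bound by ATF6 with NF-Y, was searched on both strands as CCAAT and CCACG separated by 9 bases. It was found in 9 of the 33 genes (27.3%), namely Hspa5, Hsp90b1, Calr, Canx, Pdia6, Creld2, Dnajc3, Derl3 and Syvn1, and in 37 of all 27025 genes with a promoter (0.137%). ERSE-II, searched as ATTGG and CCACG separated by 1 base, was found in Herpud1 and Dnajb11 and in 12 of all genes with a promoter (0.0444%). The amino acid response element TGATGNAA, bound by ATF4 with a C/EBP partner, was found in Asns, Chac1, Herpud1, Slc7a11 and Trib3 and in 4.51% of all genes with a promoter. The core TGACGTGG, an XBP1 and ATF6 site whose last letters are also the reverse complement of CCACG, was found in 0 of the 33 genes and in 0.714% of all genes with a promoter. Matches are descriptions of the letters and were not tested for binding.

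The windows below are shown for the genes on which the results turn, with Hspa5 as the best known target of ATF6. They are written 5′ to 3′ on the strand of the gene, with the matched letters in capitals and 12 bases on each side. In Creld2, Chac1 and the window of Herpud1 that holds the amino acid response element, the match lies on the opposite strand, so its reverse complement is shown.
Hspa5, ERSE, chr2:34772013-34772055, plus strand: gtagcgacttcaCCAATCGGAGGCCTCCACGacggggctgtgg
Creld2, ERSE, chr15:88819508-88819550, plus strand: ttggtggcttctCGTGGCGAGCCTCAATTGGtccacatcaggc
Syvn1, ERSE, chr19:6046520-6046562, plus strand: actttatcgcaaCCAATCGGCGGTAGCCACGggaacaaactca
Herpud1, ERSE-II, chr8:94386365-94386399, plus strand: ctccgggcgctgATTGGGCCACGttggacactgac
Herpud1, amino acid response element, chr8:94386305-94386336, plus strand: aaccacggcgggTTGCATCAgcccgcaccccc
Slc7a11, amino acid response element, chr3:50443660-50443691, minus strand: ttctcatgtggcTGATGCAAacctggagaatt
Asns, amino acid response element, chr6:7693213-7693244, minus strand: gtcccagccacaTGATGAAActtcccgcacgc
Chac1, amino acid response element, chr2:119351037-119351068, plus strand: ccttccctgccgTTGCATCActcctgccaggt
Slc7a11 held another match to the amino acid response element, 47 to 40 bases before its start on the opposite strand.

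**Figure D1:**
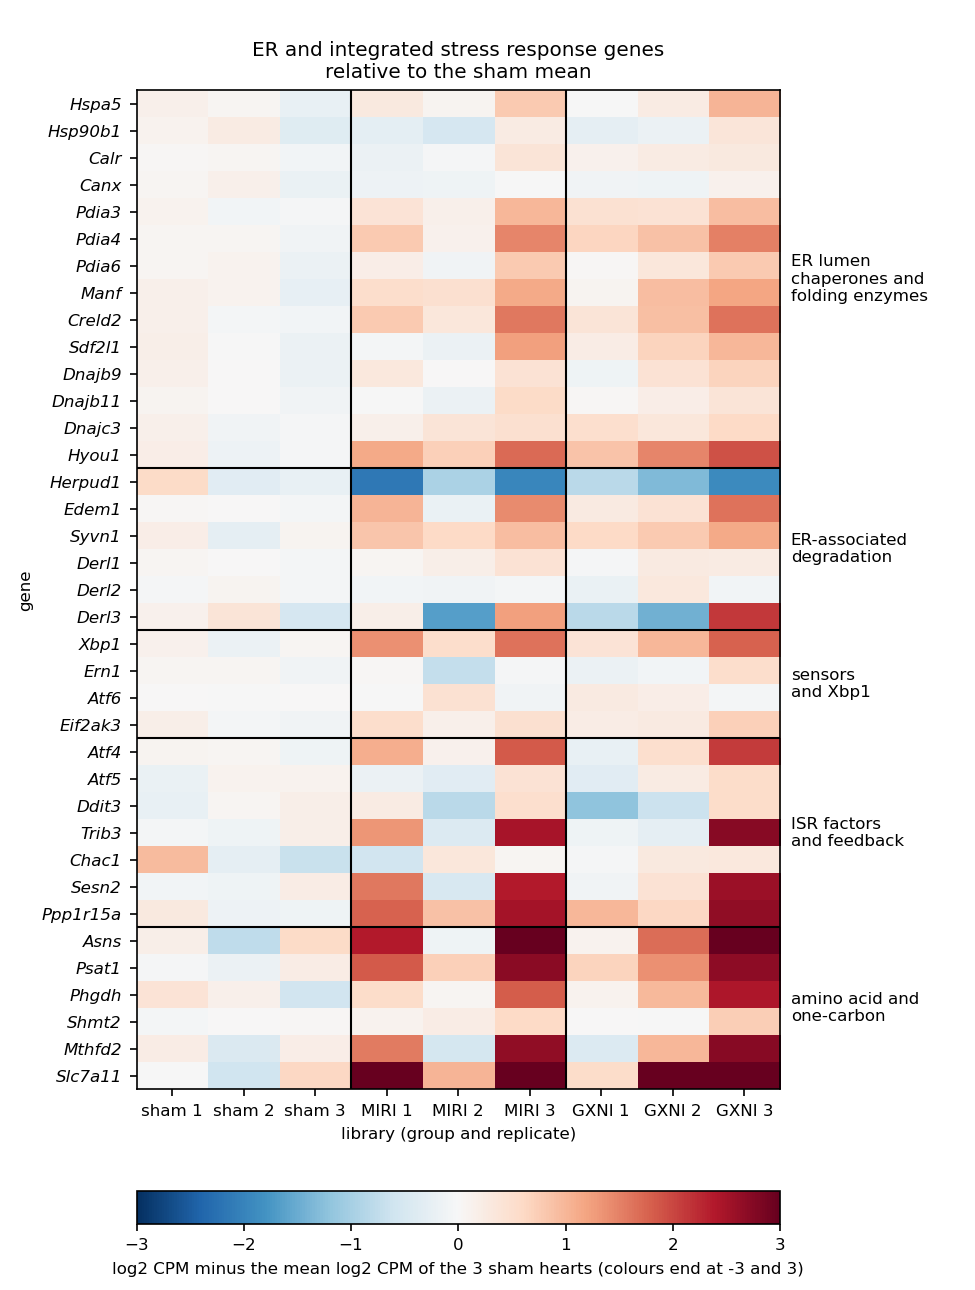
Each row is 1 of the 37 genes and each column 1 library, and the colour is the log2 CPM minus the mean log2 CPM of the 3 sham hearts, with the colour scale ending at -3 and 3. The reddest columns are MIRI 3 and GXNI 3, in which the medians over the 37 genes were 0.92 and 0.99, against 0.32 in MIRI 1, 0.34 in GXNI 2, 0.05 in MIRI 2 and 0.04 in GXNI 1; Herpud1 is blue in all 6 injured hearts.

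Against sham, the 6 injured hearts showed higher mRNA of a subset of the genes and lower mRNA of 1, Herpud1. Calls follow the thresholds of the study, a fold change of 1.5 or more with p no larger than 0.01 before adjustment, here in the quasi-likelihood test of edgeR. Of the 37 genes, 8 were called higher (21.6%, against 5.52% of all 15207 genes tested): Pdia4, Creld2, Hyou1, Syvn1, Xbp1, Ppp1r15a, Psat1 and Slc7a11. Herpud1 was the 1 gene called lower (2.70%, against 2.85% of all genes). Slc7a11 passed the filter on low counts only through its injured hearts, and without it 7 of 36 genes were called higher (19.4%). The median log2 fold change was 0.56 with Slc7a11 and 0.50 without it, against 0.01 over all genes. None of the 37 reached an adjusted p of 0.05 in edgeR (against 0.0592% of all genes), where 16 had an unadjusted p under 0.05 (43.2%, against 29.5%). In DESeq2, run without the filter, 13 reached an adjusted p of 0.05 (35.1%, against 7.56% of 29338 genes with any count). That larger set holds many genes of low count, which can lower its share, so the gap is not like that in edgeR. Without MIRI 2 and GXNI 3, 9 were called higher (24.3%, against 6.6% of all genes) and 1 lower (against 3.24%), with a median of 0.38. Slc7a11 was among these 9 and again passed the filter only through injured hearts. The count of 8 fell to 2 (5.41%) without sham 1, without sham 2 or without sham 3, where 2.19%, 1.63% and 1.99% of all genes were called higher.

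In MIRI against sham, 5 of 36 genes tested were called higher (13.9%, against 6.15% of all 14644 genes), namely Hyou1, Syvn1, Xbp1, Ppp1r15a and Psat1, and Herpud1 was called lower (2.78%, against 2.82%). In GXNI against sham, 5 of 36 were called higher (13.9%, against 2.67% of all 14695 genes), namely Pdia3, Pdia4, Hyou1, Syvn1 and Psat1, and Herpud1 was again called lower (2.78%, against 1.54%). Both comparisons use the same sham hearts. The counts of 5 depended on the filter and the tool. In MIRI, 14 of 37 were called higher without a filter on low counts (37.8%, against 5.75% of all genes) and 14 in DESeq2 (against 5.34%). Calls of named genes in the text are those of edgeR with its filter. The 14 thus hold genes given below as not called or not tested in MIRI, with every library kept. In GXNI the counts were 11 without a filter (29.7%, against 3.57%) and 10 in DESeq2 (27.0%, against 3.56%). In these settings the shares of all genes are over 27898 to 27966 genes with any count, genes of low count included. They can be lower for that reason than shares over the filtered genes. The median log2 fold change of the genes tested was 0.41 in MIRI and 0.56 in GXNI. Slc7a11 was tested in neither, since only 2 of the 6 libraries reached the minimum count of the filter, which asks for 3. The number of genes whose 3 injured libraries all lay above the 3 sham libraries was 12 in MIRI (33.3%, against 17.4% of all genes) and 13 in GXNI (36.1%, against 13.8%), and 2 genes in MIRI (5.56%, against 16.2%) and 1 in GXNI (2.78%, against 15.6%) lay below. Over the 6 injured hearts, 8 genes lay above all sham libraries in every heart (21.6%, against 8.4%) and Herpud1 below (2.70%, against 8.46%). The 8 were Pdia3, Pdia4, Creld2, Hyou1, Syvn1, Xbp1, Ppp1r15a and Psat1.

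The counts in MIRI depended on single libraries. Without MIRI 2, 16 of 37 genes were called higher (43.2%, against 16.9% of all genes) and Herpud1 lower (against 13.3%), and 20 had an adjusted p of at most 0.05 in edgeR (54.1%, against 43.1% of all genes). The 16 were Pdia3, Pdia4, Manf, Creld2, Hyou1, Edem1, Syvn1, Xbp1, Atf4, Trib3, Sesn2, Ppp1r15a, Asns, Psat1, Mthfd2 and Slc7a11. Of these Slc7a11, also among the 20, passed the filter only through MIRI 1 and MIRI 3, in which it is high. Its call here is a description only. MIRI 2 was picked by its own values, as the MIRI heart lowest on the first principal component and nearest the sham hearts there. Leaving it out by itself widens MIRI against sham for genes that change along that component. All calls and adjusted p-values without MIRI 2, here and below, are thus a description only. The count was 2 without MIRI 1 (5.56%, against 2.9% of all genes) and 5 without MIRI 3 (13.9%, against 3.19%). It was 3 without sham 1 (8.11%, against 2.39%), 0 without sham 2 (against 2.25%) and 0 without sham 3 (against 2.41%). At an unadjusted p under 0.05 in edgeR there were 9 in each of the last 2 fits (24.3%, against 16.7% and 16.9% of all genes). In GXNI, 7 were called higher without GXNI 3 (19.4%, against 2.11% of all genes) and 1 lower, Ddit3 (2.78%, against 1.46%). GXNI 3 was likewise picked by its own values, as the GXNI heart highest on that component, so these calls are a description only. The count of genes called higher was 13 without GXNI 1 (35.1%, against 10.7%), 3 without GXNI 2 (8.33%, against 1.58%) and 2 without sham 1 (5.41%, against 0.781%). Without sham 2 and without sham 3 it was 1 (2.70%, against 0.551% and 0.64%).

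**Figure D2:**
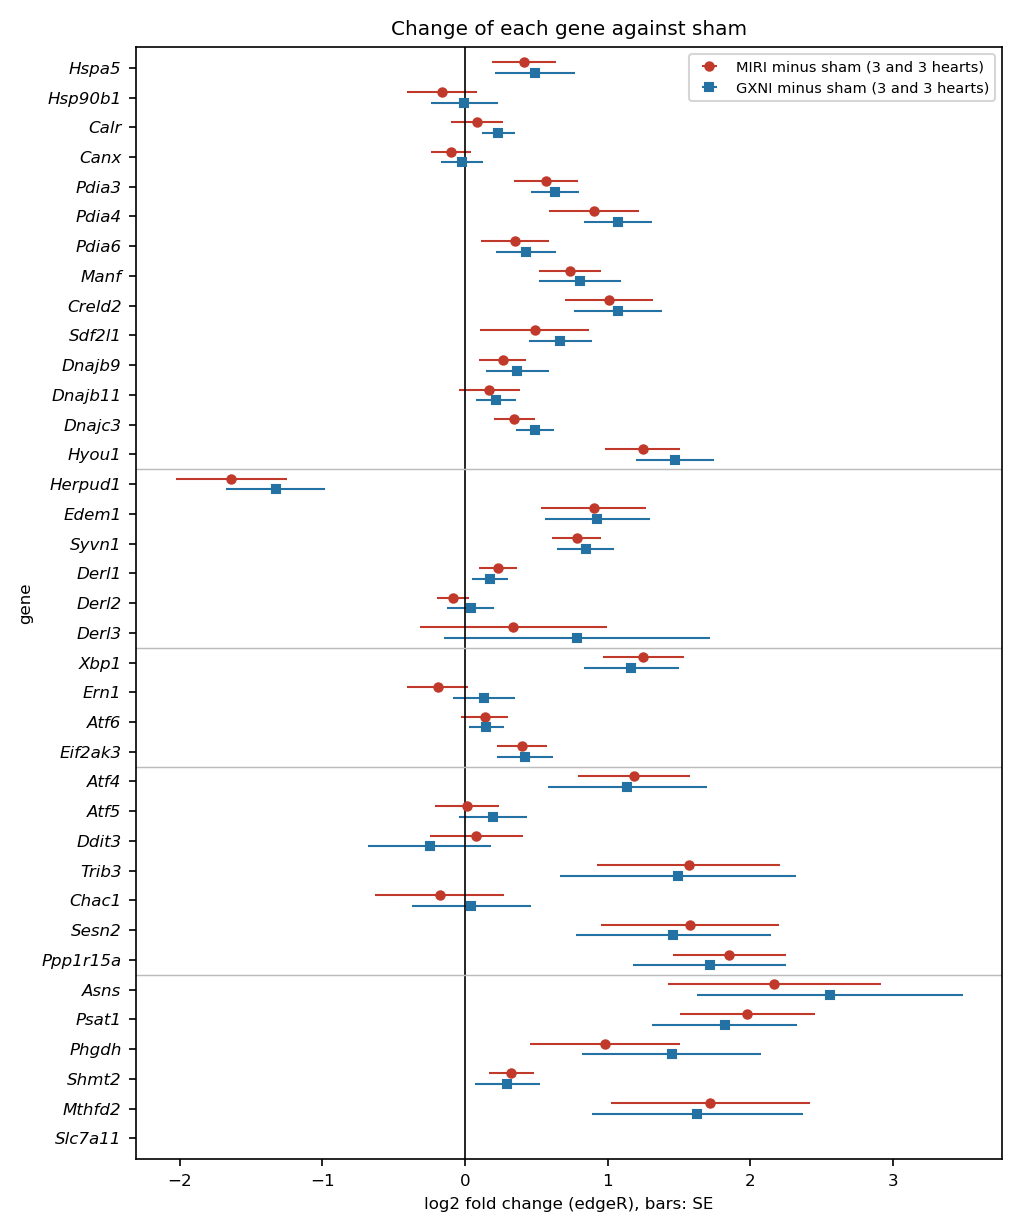
Points give the log2 fold change of each gene against sham from edgeR, circles for MIRI and squares for GXNI, and bars give the standard error (SE); Slc7a11 was not tested in these comparisons and has no point. Herpud1 lies at -1.64 in MIRI and -1.33 in GXNI, and Hyou1, Xbp1, Ppp1r15a and Psat1 lie above 1 in both.

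Among the chaperones and folding enzymes of the ER lumen, 3 of 14 were called higher in the 6 injured hearts (against 5.52% of all genes) and 0 lower (against 2.85%), with a median log2 fold change of 0.43. Hyou1 (ORP150) is a large chaperone of the HSP70 family that acts as a nucleotide exchange factor for BiP and was first known from oxygen-starved cells. It lies on chromosome 9 from 44379490 to 44392369 on the plus strand (GRCm38). Its levels were 55.5, 42.9 and 46.6 CPM in sham hearts, 106, 79.5 and 157 CPM in MIRI hearts 1 to 3, and 86.6, 133 and 180 CPM in GXNI hearts 1 to 3. All 6 injured hearts lay above all sham hearts, and MIRI 2 and GXNI 1 lay lowest among the injured. In edgeR the log2 fold change was 1.25 ± 0.26 (SE, n = 3 and 3; adjusted p = 0.0759) in MIRI, 1.47 ± 0.27 (n = 3 and 3; adjusted p = 0.219) in GXNI and 1.36 ± 0.28 (n = 6 and 3; adjusted p = 0.0770) in all injured hearts. Hyou1 kept its call in 9 of 9 fits of all injured hearts that left out 1 library and in 6 of 6 of GXNI, but lost it in MIRI without sham 2 and without sham 3.

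Pdia4 (ERp72), a protein disulfide isomerase, stood at 34.4, 34.6 and 30.8 CPM in sham hearts. It reached 57.6, 36.3 and 91.6 CPM in MIRI hearts and 51.6, 61.2 and 95.4 CPM in GXNI hearts. MIRI 2 was within 2 CPM of the highest sham heart, and the other 5 injured hearts were clearly above it. Over all injured hearts its log2 fold change was 0.98 ± 0.29 (SE, n = 6 and 3; adjusted p = 0.0914 in edgeR), a fold of 1.97. Creld2, an ER-resident protein secreted under stress whose ERSE is printed above, rose from 19.8, 17.1 and 16.9 CPM in sham hearts to 31.0, 22.8 and 53.9 CPM in MIRI hearts and 23.6, 33.3 and 55.4 CPM in GXNI hearts. Its log2 fold change over all injured hearts was 1.03 ± 0.31 (SE, n = 6 and 3; adjusted p = 0.0941 in edgeR). It lost the call in 7 of the 9 fits that left out 1 library, and Pdia4 lost it in 5.

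Pdia3 (ERp57) folds glycoproteins together with calnexin and calreticulin. Its levels were 162, 143 and 148 CPM in sham hearts, 201, 169 and 299 CPM in MIRI hearts, and 208, 204 and 285 CPM in GXNI hearts, so that the groups did not overlap. It was called in GXNI (log2 fold change 0.63 ± 0.17, SE, n = 3 and 3; adjusted p = 0.219 in edgeR) and kept that call in 1 of 6 fits that left out 1 library; the value in MIRI was 0.57 ± 0.22.

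Hspa5 (BiP, GRP78), the chief HSP70 of the ER and the classic readout of the unfolded protein response, was not called in any comparison with all libraries. It stood at 771, 718 and 591 CPM in sham hearts, 850, 727 and 1181 CPM in MIRI hearts and 687, 822 and 1397 CPM in GXNI hearts. MIRI 3 and GXNI 3 were highest, and MIRI 2 and GXNI 1 lay within the range of the sham hearts. Its log2 fold change was 0.41 ± 0.22 (SE, n = 3 and 3, adjusted p = 0.260 in edgeR) in MIRI and 0.49 ± 0.28 (adjusted p = 0.341) in GXNI. Without MIRI 2 the value in MIRI was 0.56 ± 0.17, a fold of 1.47. Its p of 0.0143 in edgeR missed the call, while its adjusted p was 0.0364, as 43.1% of all genes had at most 0.05 there. Without GXNI 3 the value in GXNI was 0.13 ± 0.15 (adjusted p = 0.711 in edgeR). Per kilobase of exon it was nevertheless the most abundant of the 37 in sham hearts, at 164 CPM per kb, followed by Herpud1 (159 CPM per kb) and Calr (125 CPM per kb), and Hspa5 and Herpud1 did not differ beyond the spread of Herpud1 between sham hearts.

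The other lumen genes were not called in any comparison with all libraries. Hsp90b1 (GRP94), Calr and Canx, which make up much of the general folding capacity and all carry an ERSE, had log2 fold changes of -0.09 ± 0.21, 0.15 ± 0.14 and -0.06 ± 0.12 (SE, n = 6 and 3) over all injured hearts. Dnajc3 (p58IPK), a cochaperone, passed the p threshold but not the fold, with a log2 fold change of 0.41 ± 0.12 (adjusted p = 0.0927 in edgeR) and 5 of 6 injured hearts above all sham hearts. Manf, a secreted survival factor held in the ER, was at 0.77 ± 0.25 (adjusted p = 0.102), also with 5 of 6 hearts above. The values of Pdia6, Sdf2l1, Dnajb9 and Dnajb11 lay between 0.19 and 0.57. Of the 9 genes with an ERSE, 2 were called higher, and of the 24 with a promoter but no ERSE, 5 were, against 5.52% of all genes tested.

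**Figure D3:**
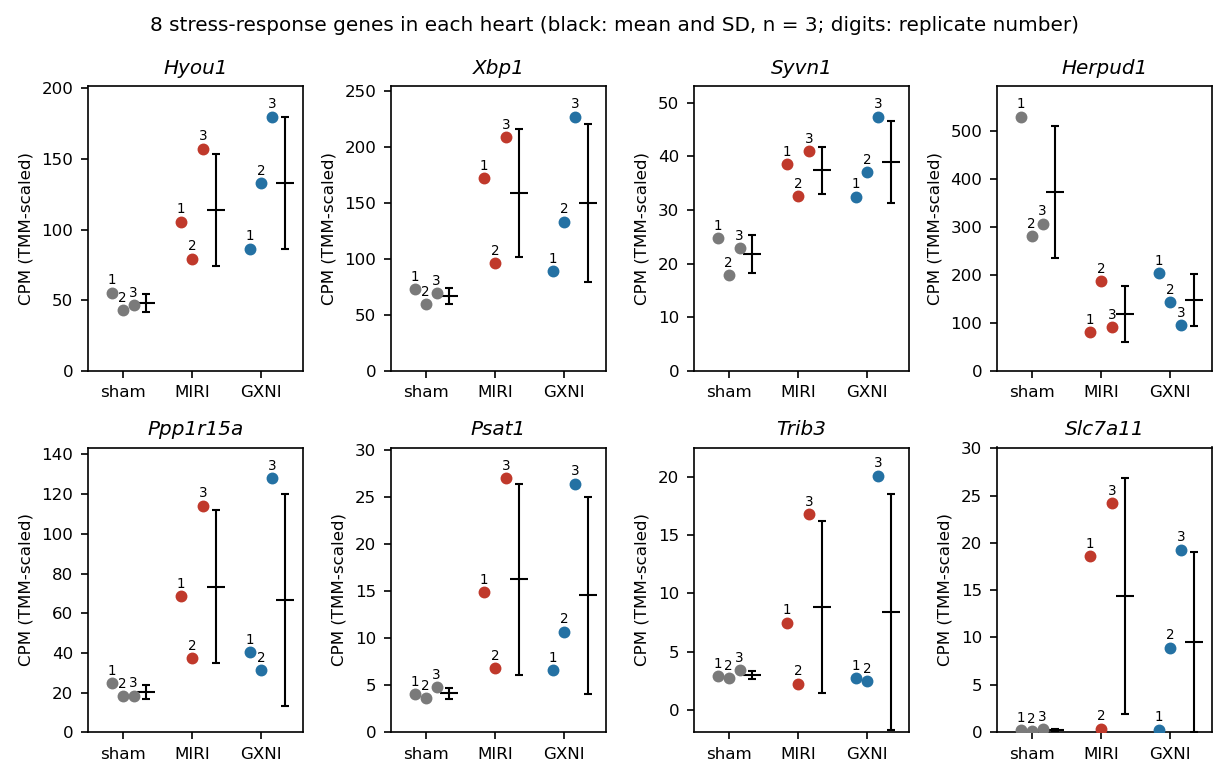
Coloured points are the CPM of 8 genes in each of the 9 hearts, labelled with the replicate number, and the black bars give the mean and SD of each group (n = 3). Hyou1, Xbp1, Syvn1, Ppp1r15a and Psat1 lie above the sham hearts in all 6 injured hearts and Herpud1 below, whereas Trib3 is high in MIRI 1, MIRI 3 and GXNI 3 and within or below the sham range in the other 3.

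Among the 6 genes of ER-associated degradation, the machinery that returns misfolded proteins to the cytosol for the proteasome, 1 was called higher (against 5.52% of all genes) and 1 lower (against 2.85%). Syvn1 (HRD1), the ubiquitin ligase at the centre of that machinery, had the smallest SE of the genes called over all injured hearts. It stood at 24.7, 17.8 and 22.9 CPM in sham hearts, 38.5, 32.6 and 41.0 CPM in MIRI hearts and 32.5, 37 and 47.4 CPM in GXNI hearts. Each injured heart was above each sham heart, MIRI 2 and GXNI 1 included. As a log2 fold change this was 0.78 ± 0.17 (SE, n = 3 and 3; adjusted p = 0.0769 in edgeR) in MIRI, 0.85 ± 0.20 (adjusted p = 0.219) in GXNI and 0.81 ± 0.16 (n = 6 and 3; adjusted p = 0.0707) in all injured hearts, and the last kept its call in 9 of 9 fits that left out 1 library. The exons of Syvn1 share 91 bases with Mrpl49 on the opposite strand, and the strand setting of the counting is not given in the sources used here.

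Herpud1 (HERP) is an ER membrane protein that brings substrates to the HRD1 complex. It lies on chromosome 8 from 94386438 to 94395377 on the plus strand, with both an ERSE-II and an amino acid response element before its start, as printed above. Its levels were 530, 280 and 306 CPM in sham hearts, 80.3, 186 and 91.7 CPM in MIRI hearts and 203, 144 and 95.3 CPM in GXNI hearts. All 6 injured hearts were below all sham hearts, and MIRI 1, MIRI 3 and GXNI 3 were lowest. In edgeR its log2 fold change was -1.64 ± 0.39 (SE, n = 3 and 3; adjusted p = 0.0841 in edgeR) in MIRI, -1.33 ± 0.35 (adjusted p = 0.219) in GXNI and -1.48 ± 0.33 (n = 6 and 3; adjusted p = 0.0852) in all injured hearts. Sham 1 was the highest sham heart; without it the values were -1.31 in MIRI and -0.99 in GXNI, both no longer called, and -1.14 in all injured hearts, still called. In MIRI the call was also lost without MIRI 1 or MIRI 3, and in GXNI without GXNI 2, GXNI 3 or sham 3. Its direction was thus opposite to that of Syvn1, its partner in the complex, and of the lumen genes called higher.

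Edem1, a lectin that marks glycoproteins for degradation, varied among the injured hearts. It was 23.0, 22.9 and 21.7 CPM in sham hearts and 45.9, 60.1 and 70.4 CPM in MIRI 1, MIRI 3 and GXNI 3, but 19.8, 27.1 and 30.4 CPM in MIRI 2, GXNI 1 and GXNI 2. Its log2 fold change in MIRI was 0.90 ± 0.37 (SE, n = 3 and 3; adjusted p = 0.167 in edgeR) with all libraries and 1.24 ± 0.14 (n = 2 and 3; adjusted p = 6.3e-04) without MIRI 2. Derl1 and Derl2, channel proteins of the same pathway, had log2 fold changes of 0.20 ± 0.11 and -0.03 ± 0.13 over all injured hearts. Derl3, a relative of both, had 5 to 76 counts per library and a value of 0.56 ± 0.82, an SE larger than the value.

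Of the 4 genes of stress sensing, Xbp1 was called higher over all injured hearts (1 of 4, against 5.52% of all genes) and the 3 sensors were not. Xbp1 encodes the transcription factor made after IRE1 splices its mRNA, and is itself a target of ATF6. It stood at 73.2, 59.4 and 69.4 CPM in sham hearts, 172, 96.5 and 209 CPM in MIRI hearts and 89.4, 133 and 227 CPM in GXNI hearts. Even the lowest injured heart, GXNI 1, was above the highest sham heart. The log2 fold change was 1.25 ± 0.28 (SE, n = 3 and 3; adjusted p = 0.0786 in edgeR) in MIRI and 1.20 ± 0.31 (n = 6 and 3; adjusted p = 0.0875) in all injured hearts, and 1.17 ± 0.33 (adjusted p = 0.219) in GXNI, where p stood just above the threshold. The call in all injured hearts was lost without any 1 of the sham hearts, and that in MIRI without MIRI 1 or any 1 of the sham hearts. The sensors Ern1, Atf6 and Eif2ak3 had log2 fold changes of -0.03 ± 0.22, 0.14 ± 0.14 and 0.40 ± 0.16 (adjusted p = 0.937, 0.494 and 0.130 in edgeR) over all injured hearts.

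The 7 transcription factors and feedback genes of the integrated stress response differed widely between injured hearts. Their median log2 level relative to the sham mean was 1.08, 1.84 and 2.11 in MIRI 1, MIRI 3 and GXNI 3, 0.30 in GXNI 2, and -0.33 and -0.12 in MIRI 2 and GXNI 1. Only Ppp1r15a (GADD34) was called with all libraries, which over all injured hearts was 1 of 7, against 5.52% of all genes. It is the subunit that directs a phosphatase to eIF2 and so ends the response. Its levels were 24.7, 18.1 and 18.5 CPM in sham hearts, 68.7, 37.3 and 114 CPM in MIRI hearts and 40.5, 31.2 and 128 CPM in GXNI hearts. All injured hearts were above sham, and GXNI 2 was the lowest of them. The log2 fold change was 1.85 ± 0.39 (SE, n = 3 and 3; adjusted p = 0.0759 in edgeR) in MIRI, 1.72 ± 0.54 (adjusted p = 0.223) in GXNI and 1.78 ± 0.50 (n = 6 and 3; adjusted p = 0.0875) in all injured hearts. The last was lost without any 1 of the sham hearts, and that in MIRI without sham 2 or sham 3.

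Atf4, the transcription factor of the response, stood at 60.2, 59.2 and 52.2 CPM in sham hearts. It was 121, 205 and 246 CPM in MIRI 1, MIRI 3 and GXNI 3, 80.3 CPM in GXNI 2, and 62.5 and 48.6 CPM in MIRI 2 and GXNI 1. The last 2 hearts were thus near or below the sham hearts. Its log2 fold change in MIRI was 1.19 ± 0.39 (SE, n = 3 and 3; adjusted p = 0.123 in edgeR), and 1.52 ± 0.21 (n = 2 and 3; adjusted p = 0.00149) without MIRI 2. ATF4 is regulated largely in translation, so its mRNA is only part of its control.

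Trib3, a pseudokinase induced by ATF4 and CHOP, had 2.90, 2.72 and 3.41 CPM in sham hearts. It had 7.49, 16.8 and 20.1 CPM in MIRI 1, MIRI 3 and GXNI 3, and 2.26, 2.75 and 2.46 CPM in MIRI 2, GXNI 1 and GXNI 2, so the second trio lay at or just below the sham level. Sesn2 (sestrin 2), which restrains mTORC1, was also highest in the first trio, but GXNI 2 was above its sham hearts as well, with 4.89, 4.75 and 6.07 CPM in sham hearts, 15.5, 27.2 and 31.1 CPM in the first trio and 3.74, 4.84 and 7.09 CPM in the second. With all libraries and the filter, neither was called in MIRI in edgeR (1.57 ± 0.64 and 1.58 ± 0.62, adjusted p = 0.167 and 0.158). Both were called without MIRI 2, where Sesn2 was at 2.04 ± 0.25 (adjusted p = 9.8e-04 in edgeR), a description only.

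Ddit3 (CHOP), the factor that links prolonged ER stress to cell death, was not called against sham with all libraries. Its levels were 16.9, 20.4 and 22.2 CPM in sham hearts, 23.2, 11.2 and 28.0 CPM in MIRI hearts and 8.49, 12.6 and 28.8 CPM in GXNI hearts. MIRI 1, MIRI 3 and GXNI 3 lay above the sham hearts and the other 3 below them. The log2 fold change was 0.08 ± 0.33 (SE, n = 3 and 3, adjusted p = 0.890 in edgeR) in MIRI and -0.25 ± 0.43 (adjusted p = 0.745) in GXNI. Without GXNI 3 it was -0.91 ± 0.22 (n = 2 and 3, adjusted p = 0.184 in edgeR), which was a call. GXNI 3 was picked by its own values and was highest in Ddit3, so leaving it out by itself lowers the value. That call is a description only. The exons of Ddit3 share 68 bases with Mars on the opposite strand. Atf5 and Chac1, other targets of the response, had log2 fold changes of 0.10 ± 0.22 and -0.07 ± 0.34 over all injured hearts, and for Chac1, a glutathione-degrading enzyme whose amino acid response element is printed above, sham 1 at 13.5 CPM was above all other hearts.

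The 6 genes of amino acid and one-carbon metabolism had the highest median of the groups, 1.78 over all injured hearts and 1.66 without Slc7a11. Of them 2 were called higher (against 5.52% of all genes), and 1 of 5 without Slc7a11. Psat1, an enzyme of serine synthesis, stood at 4.03, 3.61 and 4.79 CPM in sham hearts, 14.9, 6.83 and 27.0 CPM in MIRI hearts and 6.59, 10.7 and 26.4 CPM in GXNI hearts. The lowest injured heart, GXNI 1, was above the highest sham heart. The log2 fold change was 1.98 ± 0.48 (SE, n = 3 and 3; adjusted p = 0.0841 in edgeR) in MIRI, 1.82 ± 0.51 (adjusted p = 0.219) in GXNI and 1.89 ± 0.52 (n = 6 and 3; adjusted p = 0.0875) in all injured hearts. Any 1 sham heart left out ended the call in each of the 3 comparisons, as did MIRI 1 in MIRI and GXNI 2 in GXNI.

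Slc7a11 (xCT) is the cystine transporter that feeds glutathione synthesis. It had 3, 2 and 5 counts in sham hearts, 397, 6 and 565 counts in MIRI hearts and 5, 181 and 332 counts in GXNI hearts. It was nearly silent in the sham hearts, in MIRI 2 and in GXNI 1, and stood at 8.92 to 24.2 CPM in the other 4 injured hearts. Summed over libraries and scaled for depth, injured hearts held 71.9 times the sham level, with an exact 95% interval of 39.0 to 150.2 that covers counting error only. Its call over all injured hearts (adjusted p = 0.0875 in edgeR) is a description only, since it entered the test through the injured hearts in which it is high; the fitted log2 fold change of 6.05 ± 1.66 rests on 10 sham counts, and the call was lost without any 1 of the sham hearts. Its amino acid response elements are those given above.

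The other 4 genes of this group were not called with all libraries. Asns, the asparagine synthetase whose element is printed above, had 2.20, 1.14 and 2.93 CPM in sham hearts and 10.3, 15.9 and 28.3 CPM in MIRI 1, MIRI 3 and GXNI 3. It was 6.26 CPM in GXNI 2 but 1.78 and 2.10 CPM in MIRI 2 and GXNI 1, within the sham range. Mthfd2, a mitochondrial enzyme of one-carbon metabolism, had 3.42 to 5.42 CPM in sham hearts, 13.6, 29.4 and 30.9 CPM in the same 3 injured hearts, 9.21 CPM in GXNI 2, and 3.21 and 3.45 CPM in MIRI 2 and GXNI 1. Without MIRI 2 both were called in MIRI, with log2 fold changes of 2.65 ± 0.36 and 2.20 ± 0.34 (SE, n = 2 and 3; adjusted p = 0.00135 and 0.00238 in edgeR). Phgdh, the first enzyme of serine synthesis, and Shmt2, a mitochondrial enzyme that splits serine, had log2 fold changes of 1.22 ± 0.58 and 0.30 ± 0.18 over all injured hearts.

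Hyou1, Syvn1, Xbp1, Ppp1r15a, Psat1 and Creld2, like Trib3, Sesn2, Asns and Mthfd2, were highest in MIRI 3 and GXNI 3. The first 6 were above sham also in MIRI 2 and GXNI 1, where the summed neutrophil markers were 28.0 and 50.4 CPM and so no higher than in sham hearts. Trib3 and Sesn2 were above all sham hearts only in hearts with neutrophil sums of 232 CPM or more, as were Asns and Mthfd2. Both sets were picked after their values were seen, the first from genes above sham in every injured heart. Other genes did not follow the split. Atf4 was above all sham hearts in MIRI 2 (62.5 CPM against at most 60.2 CPM), and Edem1 in GXNI 1 (27.1 CPM against at most 23.0 CPM). No test was made of the difference between the sets or of the part of cell composition in it.

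None of the 37 genes was called between GXNI and MIRI hearts when all libraries were used. In edgeR 0 genes were called higher (against 0.0% of all 14762 genes) and 0 lower (against 0.0203%), and 0 had an unadjusted p under 0.05 (against 0.318%). DESeq2 also gave 0 under 0.05 (against 0.324% of 28122 genes with any count). In 0 of the 37 genes were the groups separate (against 1.21% of all genes higher and 1.49% lower). The log2 differences, GXNI minus MIRI, ran from -0.60 for Slc7a11 to 0.48 for Phgdh, with a median of 0.08. Their errors were large where injured hearts varied most, so that the difference was 0.23 ± 0.35 (SE, n = 3 and 3) for Hyou1, -0.04 ± 0.67 for Atf4, -0.06 ± 0.996 for Trib3 and 0.40 ± 1.04 for Asns. For Trib3 and Asns the SE was about as large as a difference by a factor of 2, and a change of that size was not detectable.

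Without MIRI 2 and GXNI 3 the comparison gave other values, on 2 hearts a group. These 2 libraries were picked by their own values, MIRI 2 being lowest of its group on the first principal component and GXNI 3 highest. Leaving them out by itself lowers GXNI against MIRI for genes that rise along that component, and raises it for genes that fall. The calls of this fit are thus a description only. Over all genes, 2859 had an unadjusted p under 0.05 in edgeR, against 47 with all libraries. Of the 37 genes, 6 were then called lower in GXNI (16.2%, against 3.47% of all 14984 genes) and 1 higher (2.70%, against 1.52%). The 6 were Trib3 (log2 difference -2.20 ± 0.43), Sesn2 (-1.83 ± 0.35), Ppp1r15a (-1.34 ± 0.29), Atf4 (-1.32 ± 0.34), Ddit3 (-1.27 ± 0.25) and Edem1 (-0.87 ± 0.20). The 1 called higher was Herpud1, at 1.03 ± 0.23. Of the 7 transcription factors and feedback genes, 5 were in this way lower, while 0 of the 14 lumen genes were called. Adjusted p in edgeR was 0.188 for each of these genes except Atf4 (0.196), so none passed it. The median over the 37 genes was -0.28, and 31 of them had a negative value. In this fit the neutrophil markers summed to 764 and 707 CPM in the MIRI hearts and 50.4 and 232 CPM in the GXNI hearts. Macrophage and monocyte markers summed to 627 and 680 CPM against 445 and 379 CPM, and ventricular cardiomyocyte markers without Actc1 to 23495 and 22200 CPM against 34030 and 26344 CPM. GXNI 1 was highest of the 9 hearts in fibroblast markers, at 1889 CPM, and in mesothelial markers, at 76.1 CPM. The part of these cell types in the differences was not tested.

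**Figure D4:**
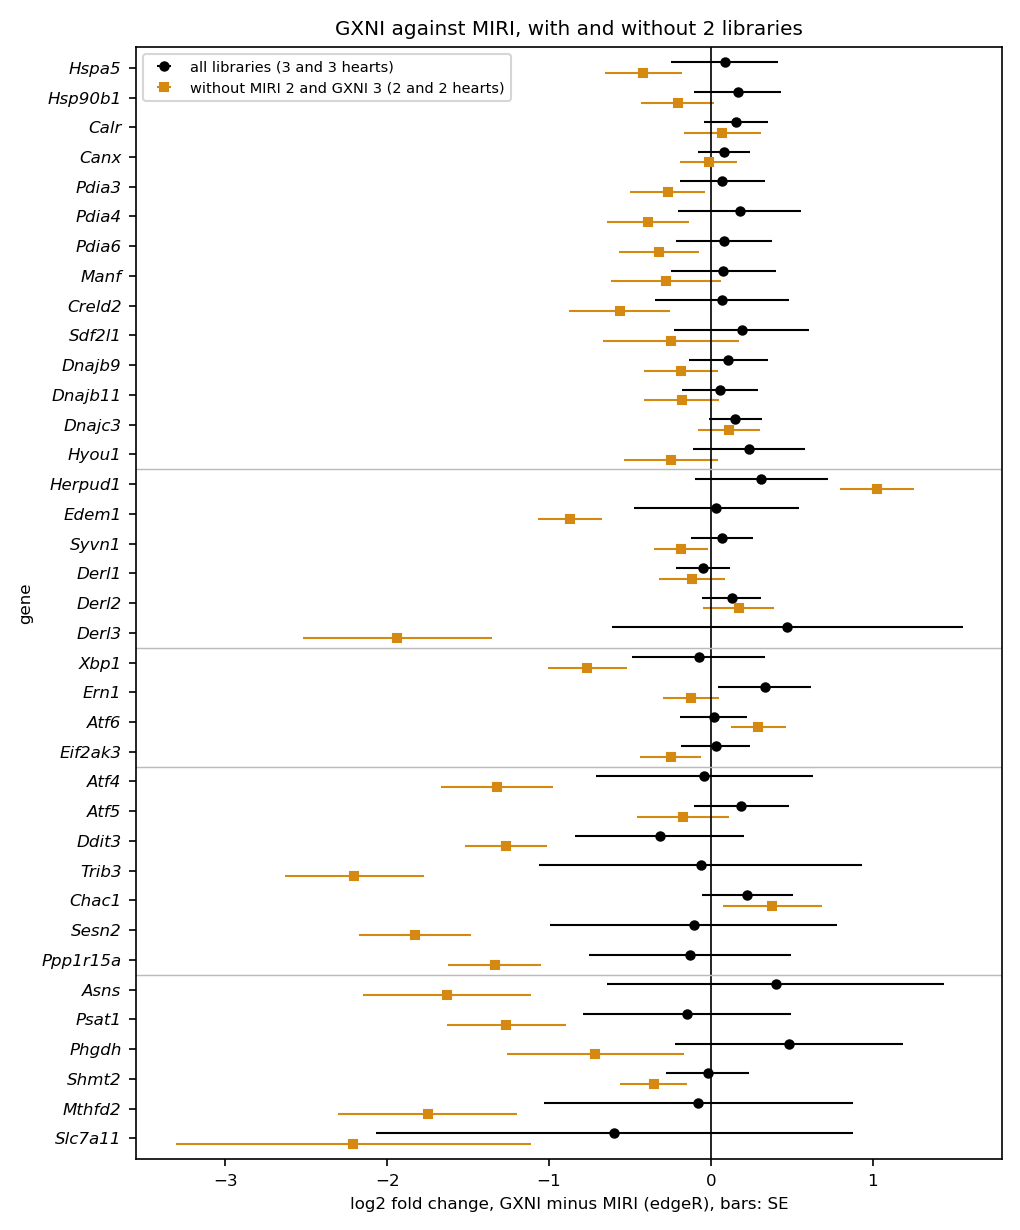
Points give the log2 difference GXNI minus MIRI of each gene from edgeR and bars the SE; black circles use 3 and 3 hearts, orange squares leave out MIRI 2 and GXNI 3 and use 2 and 2 hearts. With all libraries the values lie between -0.60 and 0.48, and without the pair Trib3 lies at -2.20 and Herpud1 at 1.03.

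Other genes of the same pathways were taken from 8 lists. Among 27 other targets of ATF4 and CHOP, of which 25 were tested, 6 were called higher and 1 lower in MIRI (against 6.15% and 2.82% of all genes), and 5 higher and 2 lower in all injured hearts (against 5.52% and 2.85%), with a median log2 fold change of 0.57. Atf3, a stress-induced repressor, stood at 2.72 to 3.11 CPM in sham hearts, 53.6, 13.4 and 93.1 CPM in MIRI hearts and 15.6, 13.8 and 120 CPM in GXNI hearts. It was above sham in all 6, with a log2 fold change of 4.15 ± 0.92 (SE, n = 6 and 3; adjusted p = 0.0852 in edgeR). Gdf15, a hormone secreted under stress, was 0.38, 1.14 and 1.39 CPM in sham hearts, 35.0, 2.73 and 57.8 CPM in MIRI hearts and 1.40, 6.16 and 54.9 CPM in GXNI hearts, so that it followed the order of Slc7a11. Slc3a2, the partner chain of xCT, and Slc7a1, an arginine transporter, had log2 fold changes of 1.19 ± 0.29 and 1.02 ± 0.30 and were called. The 2 called lower, named after their values were seen, were Vldlr (-0.99 ± 0.30) and Cth (-2.01 ± 0.50). Ddit4 was not called, with sham hearts from 22.8 to 179 CPM, and Fgf21, a hormone induced by ATF4 in other tissues, had at most 5 counts in any library.

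In the entry and processing machinery of the ER the called genes were all higher. Of 14 genes of the translocon and signal peptidase, 5 were called higher in all injured hearts (against 5.52% of all genes), 4 in MIRI (against 6.15%) and 3 in GXNI (against 2.67%), with 0 lower. Spcs3, a subunit of signal peptidase, stood at 53.7, 58.8 and 59.7 CPM in sham hearts, 267, 109 and 256 CPM in MIRI hearts and 96.4, 191 and 296 CPM in GXNI hearts. All injured hearts were well above sham, and the log2 fold change was 1.82 ± 0.38 (SE, n = 6 and 3; adjusted p = 0.0794 in edgeR). Sec61a1 and Sec61b, which form the protein-conducting channel, were at 1.06 ± 0.27 and 1.02 ± 0.25, and Ssr2 of the translocon-associated complex at 0.65 ± 0.18. Among 24 other folding and glycosylation enzymes, 6 were called higher (against 5.52%) and 0 lower (against 2.85%) in all injured hearts, including Stt3a (0.99 ± 0.24), the catalytic subunit of oligosaccharyltransferase, Fkbp11 (1.24 ± 0.35), Txndc11 (0.63 ± 0.14) and Txndc5 (0.61 ± 0.17). Of 8 other membrane sensors and proteases tested, 3 were called higher (against 5.52%): Creb3l1 (1.44 ± 0.37), Creb3l2 (0.63 ± 0.15) and Atf6b (0.63 ± 0.18), relatives of ATF6.

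The next lists are those around eIF2, translation, degradation and the mitochondria. Of 14 genes of eIF2, its kinases, exchange factor and phosphatase, 1 was called in MIRI, Eif2s2 (0.60 ± 0.16; adjusted p = 0.0981 in edgeR; against 6.15% of all genes), and 0 in all injured hearts (against 5.52%). Of 20 cytosolic aminoacyl-tRNA synthetases, targets of ATF4 in part, 4 were called higher in MIRI (Hars, Yars, Farsa and Aars, from 0.63 to 0.86; against 6.15%) and 0 in GXNI (against 2.67%) or in all injured hearts. In GXNI 1 each of these 4 was below the highest sham heart. Of 18 other genes of ER-associated degradation and UFMylation, 0 were called in any comparison with all libraries, Sel1l, the partner of HRD1, among them (0.15 ± 0.10). Of 9 genes of mitochondrial protein quality and its relay to eIF2, 0 were called, and 9 of 9 had negative values from -0.59 to -0.04 over all injured hearts. Their median was -0.07, near 0, and 3 of the 9 were positive in MIRI and 1 in GXNI. In GXNI against MIRI 0 genes of the 8 lists were called.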

How the data were processed

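Heart RNA of 3 sham, 3 MIRI and 3 GXNI mice was sequenced; p-values measure the spread between these hearts. The authors discarded low-quality reads and those with adapter or poly-N, mapped the rest with HISAT2 and counted with featureCounts of Subread; the submitters' processing notes name mm10. Versions and the strand setting are not given in the sources used here. The deposited values are unnormalized whole-number counts, and 0 other columns were used. Coordinates and exon lengths are those of GENCODE M21 (GRCm38), in which 54495 of 54532 identifiers had a symbol. Of the 37 genes, 13 share exon bases with another annotated gene.

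Each comparison was fitted on its own libraries over all genes with edgeR 4.0.16 in R 4.3.3 (TMM, default filter, quasi-likelihood F test, no covariates). Called genes had a fold change of at least 1.5 and p of at most 0.01; Benjamini-Hochberg adjusted p-values cover all genes tested. CPM values use TMM factors over 9 libraries, and log2 CPM a prior count of 0.5. SE is the log2 fold change divided by the square root of F. The fit was tested on simulated counts. Alternatives were RLE normalization, no filter, DESeq2 1.42.0, all 9 libraries in 1 fit, mitochondrial genes left out, a replicate block, adjusted p, each library left out, and MIRI 2 and GXNI 3 left out. Genes and lists were chosen with earlier results of these data known. Values in every library are given for members called in any comparison and a few others; of the other lists the 4 called genes of smallest p, with Atf3, Gdf15, Fgf21, Ddit4 and Sel1l. None of the 36 pairs of libraries agreed within sampling noise (smallest chi-square per degree of freedom 14.4).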

Additional observations from a re-analysis of the deposited data

Results flagged for a closer look

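Each of the 37 genes was examined for 1 heart far from the other 5 among the 6 injured hearts, by Dixon's 95% value for 6 samples, which chance passes in about 1 of 20 groups. Derl2, a channel protein of ER-associated degradation, was the 1 gene that passed. It stood at 43.3 CPM in GXNI 2 and at 29.9 to 33.1 CPM in the other 5, and the gap was 0.719 of the range on the log2 scale. Its exons share 231 bases with Mis12 on the opposite strand.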

How the results depend on the processing

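All 21 log2 fold changes of the called genes kept their direction and their call with RLE size factors, without mitochondrial genes, without a filter and in DESeq2, and 14 of 21 did with all 9 libraries in 1 fit. None of the 21 changed sign in any alternative run. In MIRI against sham, 14 genes were called higher without a filter (against 5.75% of all genes with any count) and 14 in DESeq2 (against 5.34% of these). With the replicate block 0 were called lower. In GXNI against sham, 11 were called higher without a filter (against 3.57% of all genes with any count) and 10 in DESeq2 (against 3.56% of these). With all 9 libraries in 1 fit 2 were called higher (against 1.97% of the filtered genes) and 0 lower. With an adjusted p of at most 0.05 in edgeR, 0 genes were called in either direction in each comparison with sham. Without MIRI 2 and GXNI 3, 6 genes were called lower (against 3.47% of all genes) and 1 higher (against 1.52%) in GXNI against MIRI. The median of the 37 went from 0.08 to -0.28, a direction that the choice of these 2 libraries by their values favours by itself. The cause of these shifts was not tested. Leaving out 1 library at a time gave from 0 to 16 called higher and 0 to 1 lower in MIRI, 1 to 13 higher and 0 to 1 lower in GXNI, 2 to 12 higher and 1 lower in all injured hearts, and 0 in GXNI against MIRI. With 2 hearts left in a group the test draws on few degrees of freedom.

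Whether the replicate numbers pair the hearts could not be decided. The correlations of deviations between same-numbered hearts ran from -0.445 to 0.701. With the replicate block, 6 genes were called higher in MIRI (against 4.77% of all genes), 4 in GXNI (against 2.33%) and 8 in all injured hearts (against 5.92%). Of the 21 calls, 19 stayed. At these depths Derl3, Phgdh and, in sham hearts, Slc7a11 were read from few counts.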
